A study of Mus musculus with 6 samples.

Results

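The genes described here lie along mouse chromosome 10 and had a mean of at least 1 CPM (counts per 1 M counts of a library, scaled by TMM factors) over 6 RNA-seq libraries. Of 13733 genes at that level in the table, 647 lay on this chromosome, and 585 of them are protein-coding. The libraries came from mouse embryonic fibroblasts (MEFs), fibroblasts grown out of embryos, in a line described as p53-deleted. A lentivirus carried either a negative control hairpin (shNT, 3 libraries) or a hairpin against p19ARF (shARF, 3 libraries), and all titles also carry the tag neo. The labels list the genotype of the shNT samples as WT and that of the shARF samples as ARF knockdown, although both groups share the p53-deleted line. Only 1 control and 1 ARF hairpin are named, so an effect of the hairpin's sequence and an effect of losing ARF cannot be told apart. The titles call the replicates biological, without saying whether they were separate infections or separate cultures, and p-values measure the spread between these libraries alone.

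A chromosome is read gene by gene, yet its genes share a physical setting: neighbours can lie in one chromatin domain, share a start region, or be gained or lost together when a segment changes in copy number. A run of neighbouring genes that all differ in one direction is therefore looked at differently from single genes that happen to lie close. ARF itself is a nucleolar protein known for binding Mdm2, the ubiquitin ligase of p53, whose gene lies on chromosome 10. The same chromosome carries Cdk4, the kinase held back by p16INK4a, the other product of the Cdkn2a locus. Decorin (Dcn), a fibroblast proteoglycan, and the growth factor gene Igf1 lie there as well.

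The chromosome was selected on the log2 fold change of shARF over shNT, because the 10 Mb window from 100 to 110 Mb stood above the others in it. All fold changes below, and the calls made from them, are therefore a description of these 6 libraries and support nothing by themselves. The members on it were chosen by their mean CPM over all 6 libraries. The 3 genes of the chromosome just under that level were Rpl32l (0.979 CPM), Gm10327 (0.966 CPM) and Gm9049 (0.948 CPM), and the 3 just above it were Gm48551 (1.02 CPM), Gipc3 (1.02 CPM) and Gm48086 (1.02 CPM). A member named Rnu3a did not pass the filter on low counts and has no fold change, which leaves 646. Another entry of the same name was tested (log2 fold change -0.89, not called).

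Start regions are shown first for 9 of the members discussed below that had a RefSeq promoter. Acss3, Ptprq, Slc6a15, Vnn1 and Ccn2, also discussed, had no matched promoter and are not shown. Each line gives the 250 bases before the RefSeq start (GRCm38.p6), 5′ to 3′ on the gene's own strand. Capitals mark matches, on either strand, to the GC box spelled GGGCGG, the CCAAT box, the E-box written as CACGTG, or the ETS-type motif with letters CCGGAAG. Searches for the TATA box TATAAA, for the AP-1 motif with letters TGACTCA and for the E2F-type motif spelled TTTCGCGC found no match in these 9 stretches. Tmtc3 and Cep290 are transcribed away from each other from starts 208 bases apart in the annotation, and both were higher in shARF. Tmtc2, Lin7a and Pawr were also higher in the same window, and Syt1 was lower. Moxd1 was the largest rise of the chromosome among members of at least 5 CPM, and Cdk4 and Shmt2 went in opposite directions at the far end of the chromosome.
Tmtc3, chr10:100487348-100487597, minus strand: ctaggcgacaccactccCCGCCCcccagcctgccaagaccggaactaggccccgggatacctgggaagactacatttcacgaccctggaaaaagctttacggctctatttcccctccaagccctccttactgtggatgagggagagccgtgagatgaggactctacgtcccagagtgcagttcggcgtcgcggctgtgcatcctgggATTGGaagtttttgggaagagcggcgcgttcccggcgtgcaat
Cep290, chr10:100487332-100487581, plus strand: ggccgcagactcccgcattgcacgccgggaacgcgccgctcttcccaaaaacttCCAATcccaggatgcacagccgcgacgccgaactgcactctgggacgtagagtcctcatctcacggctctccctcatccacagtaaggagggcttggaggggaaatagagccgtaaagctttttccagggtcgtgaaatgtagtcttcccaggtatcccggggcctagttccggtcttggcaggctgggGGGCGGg
Tmtc2, chr10:105574480-105574729, minus strand: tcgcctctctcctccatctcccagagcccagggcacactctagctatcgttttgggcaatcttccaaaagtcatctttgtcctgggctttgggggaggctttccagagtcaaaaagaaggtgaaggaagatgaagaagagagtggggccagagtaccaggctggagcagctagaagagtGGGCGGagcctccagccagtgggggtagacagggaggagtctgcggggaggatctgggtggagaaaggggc
Lin7a, chr10:107271581-107271830, plus strand: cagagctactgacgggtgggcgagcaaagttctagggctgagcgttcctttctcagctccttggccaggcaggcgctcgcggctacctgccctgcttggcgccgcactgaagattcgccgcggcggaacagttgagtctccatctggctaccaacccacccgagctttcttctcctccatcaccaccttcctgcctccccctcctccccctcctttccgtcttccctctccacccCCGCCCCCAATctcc
Pawr, chr10:108331939-108332188, plus strand: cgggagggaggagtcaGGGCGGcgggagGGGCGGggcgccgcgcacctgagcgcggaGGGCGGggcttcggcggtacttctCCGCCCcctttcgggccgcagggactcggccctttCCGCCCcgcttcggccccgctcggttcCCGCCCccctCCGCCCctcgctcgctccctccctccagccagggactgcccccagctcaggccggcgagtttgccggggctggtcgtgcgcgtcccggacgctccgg
Syt1, chr10:109010976-109011225, minus strand: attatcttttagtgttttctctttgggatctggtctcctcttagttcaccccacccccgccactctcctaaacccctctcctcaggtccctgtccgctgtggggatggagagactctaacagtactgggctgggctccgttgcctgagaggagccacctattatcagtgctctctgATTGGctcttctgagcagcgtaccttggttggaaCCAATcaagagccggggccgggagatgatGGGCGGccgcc
Moxd1, chr10:24223267-24223516, plus strand: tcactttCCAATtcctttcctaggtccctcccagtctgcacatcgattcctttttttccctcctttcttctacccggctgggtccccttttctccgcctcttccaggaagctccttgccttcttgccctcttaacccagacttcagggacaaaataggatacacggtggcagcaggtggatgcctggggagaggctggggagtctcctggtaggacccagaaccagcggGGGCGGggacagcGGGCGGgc
Cdk4, chr10:127063285-127063534, plus strand: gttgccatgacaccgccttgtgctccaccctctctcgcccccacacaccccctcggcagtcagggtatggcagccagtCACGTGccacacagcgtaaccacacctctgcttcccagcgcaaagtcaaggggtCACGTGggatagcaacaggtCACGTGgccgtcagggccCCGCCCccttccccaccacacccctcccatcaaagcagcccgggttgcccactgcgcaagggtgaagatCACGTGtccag
Shmt2, chr10:127522445-127522694, minus strand: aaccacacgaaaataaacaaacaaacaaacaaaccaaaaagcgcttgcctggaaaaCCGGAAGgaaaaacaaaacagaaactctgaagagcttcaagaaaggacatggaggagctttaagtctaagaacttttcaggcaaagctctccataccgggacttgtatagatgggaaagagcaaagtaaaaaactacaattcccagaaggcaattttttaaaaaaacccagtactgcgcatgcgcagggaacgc

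The Tmtc3 and Cep290 stretches share 234 bases, read on opposite strands, so the CCAAT and the GC box capitalised in one are those of the other. Pawr holds 7 GC boxes, whereas Cdk4 holds 4 E-boxes and 1 GC box. A RefSeq promoter (250 bases before to 50 after the start) was matched for 490 of the 647 members. Over that 300-base length a GC box lay in 8 of 11 promoters of the 100 to 110 Mb window, in 71.2% of all matched members and in 35.7% of the 32851 promoters of the RefSeq table. CCAAT lay in 4 of those 11, in 36.5% of matched members and in 37.4% of the table, and CACGTG in 0 of 11, 13.3% and 7.15%. A match is a string of letters and does not show that a factor is bound.

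Total counts were 40.3 to 47.0 M per library. The targeted gene, Cdkn2a, which is not on this chromosome, was at 218 to 231 CPM in shNT and 95.6 to 107 CPM in shARF (log2 fold change -1.14, edgeR adjusted p = 2.52e-06). The count is for the whole gene, so transcripts of p19ARF and of p16INK4a cannot be told apart in it. All 8 fibroblast markers examined were above 1 CPM, with a summed level of 20800 to 22416 CPM in shNT and 24213 to 24485 CPM in shARF. Of the 5 blood markers Adgre1 was at 0 in every library, and their sum was 6.73 to 7.47 CPM in shNT and 1.5 to 1.99 CPM in shARF. The summed levels in shNT and shARF were 36.8 to 39.6 and 32.7 to 34.0 CPM for 5 epithelial markers, 2.40 to 2.89 and 2.81 to 3.62 CPM for 4 endothelial markers (Cdh5 at 0), and 82.4 to 85.7 and 83.8 to 85.6 CPM for 4 mesothelial markers. They were 174 to 184 and 227 to 247 CPM for 5 neural markers (Rbfox3 and Sox2 at 0), and 0.0821 to 0.0972 and 0.268 to 0.537 CPM for 4 skeletal muscle markers (Ckm, Myod1 and Myog at 0). The groups also differed in Xist (360 to 413 CPM in shNT, 40.7 to 54.3 CPM in shARF) and in the Y-linked gene Ddx3y (22.8 to 26 and 80.7 to 88.9 CPM) and Kdm5d (0.534 to 0.923 and 18.8 to 19.9 CPM). The labels do not say that both groups came from one culture, so an effect of the hairpin and a difference between cell populations cannot be told apart in any fold change below. In bulk RNA, fewer cells of a type and less RNA per cell cannot be told apart.

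The fold changes of single genes along chromosome 10 scattered around 0. The median log2 fold change of the 646 members was 0.03 (-0.06 when libraries were scaled by their totals alone), with the middle of the distribution between -0.29 and 0.29 (25th and 75th percentiles). Of these members 213 were called higher and 198 lower at an adjusted p under 0.05 (edgeR's quasi-likelihood test), which is 63.6%. The background was 63.4% among all genes of at least 1 CPM (32.9% higher and 30.5% lower), and 56.4% among all 17128 genes tested. The libraries of the groups did not overlap for 458 of the 646 members, beside 70.6% of genes at that level and 64.6% of all genes tested. Changes of at least 2-fold were called for 40 members that rose and 43 that fell, or 12.8%, beside 12.2% at that level and 14.4% of all genes tested (6.59% that rose and 7.78% that fell). The share of members called was therefore near that of the genome. By its median the chromosome ranked 11th from the lowest of 19 autosomes, whose medians ran from -0.27 (chromosome 8) to 0.33 (chromosome 12).

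**Figure D1:**
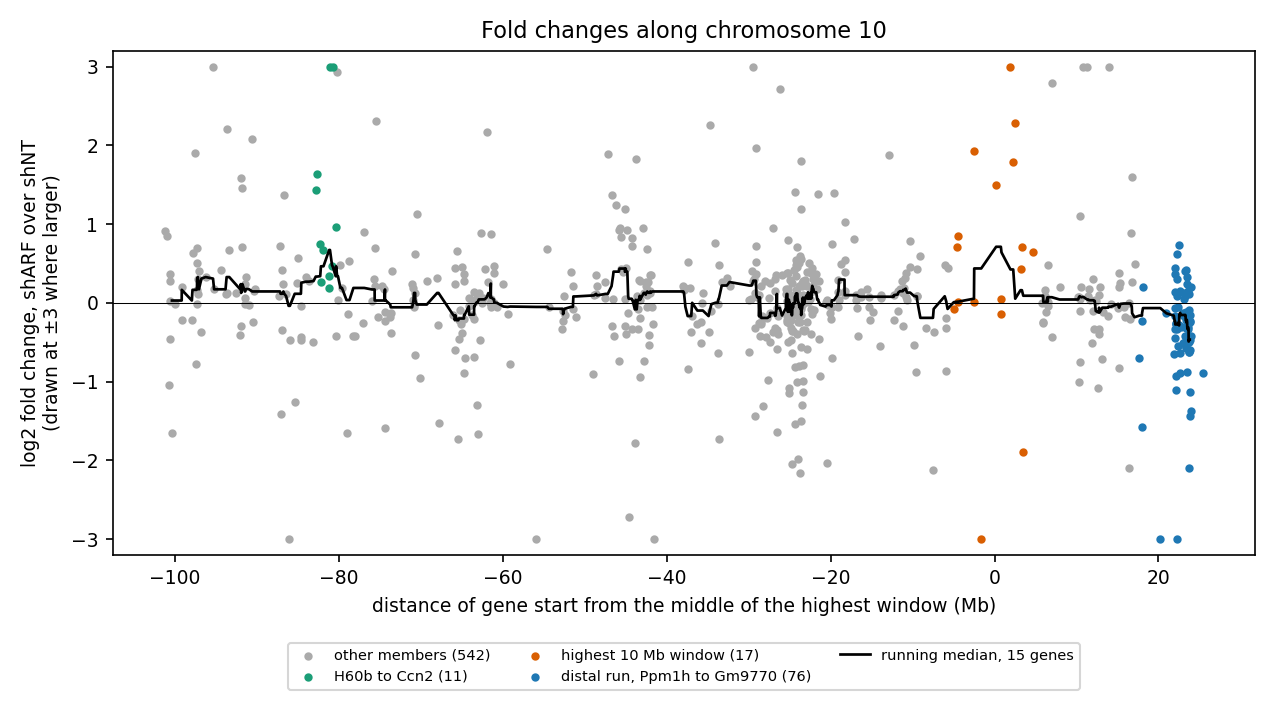
Log2 fold change of shARF over shNT (y axis, drawn at ±3 where larger) for the 646 members with a fold change, against the distance of the gene start from the middle of the 100 to 110 Mb window (x axis, Mb). Points are genes, coloured by the 4 groups in the legend, and the line is the running median over 15 genes, which peaked at 0.71 at Tmtc2 and was lowest, at -0.49, at Rab5b near the far end.

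The window from 100 to 110 Mb had a median log2 fold change of 0.64 over 17 members. The other 12 windows of 10 Mb with at least 15 members had medians from -0.22 to 0.28. The window also had the fewest members of any of them, against 137 in the fullest window. Its span holds 137 annotated genes, 39 of them protein-coding, and its members were long, with a median span of 84.8 kb against 22.0 kb for the chromosome. Among 247 such windows of the genome it had the highest median, and the second was 0.45 (chromosome 12, 50 to 60 Mb). That rank depends on the minimum of 15 members. Chromosome 15 at 40 to 50 Mb, with 14 members, had a higher median of 0.68. Among the 17 members, Acss3 and Nts reached the mean of 1 CPM only through shARF, and Slc6a15 only through shNT. The median and the rank of the window therefore also rest on genes that the level filter kept through their higher group. The spread of the 100 to 110 Mb window was also among the widest of the 247, as its interquartile range of 1.49 ranked 2nd. In each library the median over its members, taken as log2 of (CPM + 0.5) over the shNT mean plus 0.5, was -0.04 to 0.03 in shNT and 0.59, 0.70 and 0.60 in shARF replicates 1, 2 and 3.

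**Figure D2:**
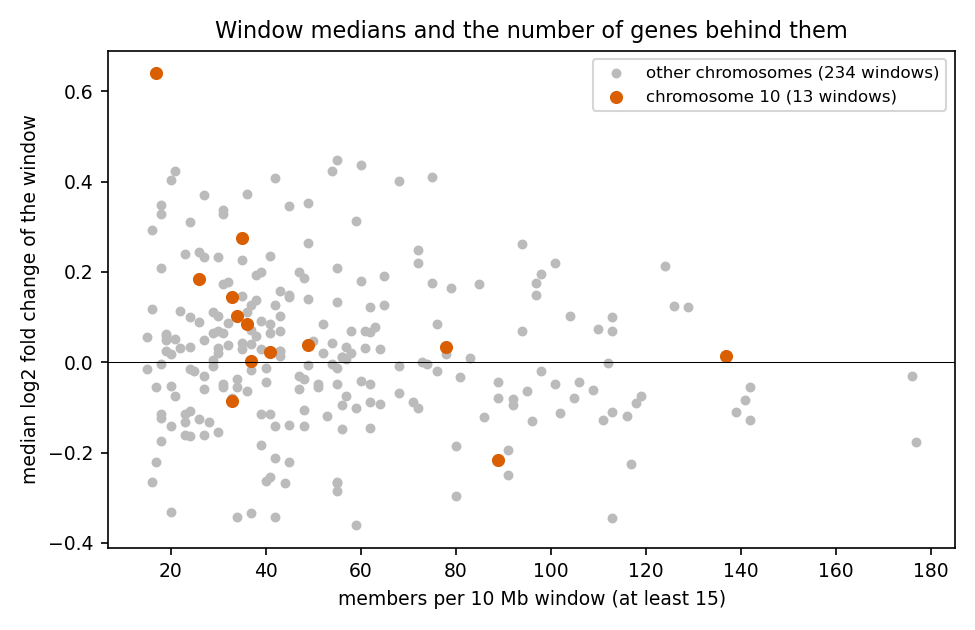
Median log2 fold change (y axis) of every 10 Mb window with at least 15 members against the number of its members (x axis); orange points are the 13 windows of chromosome 10 and grey points those of other chromosomes. The 100 to 110 Mb window, at 17 members and 0.64, lies at the upper left, and windows of 15 to 25 members spread more widely (SD of 0.21 over 40 windows) than those of 60 or more (0.15 over 80 windows).

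The label of a local rise did not hold gene by gene over the whole window. Risen, level and fallen genes alternated from Kitl to Ccdc59. From Acss3 to Nav3 every member was called higher except Syt1, which fell. Of its 17 members 10 were called higher, 3 lower and 4 neither, beside 32.9% higher and 30.5% lower among all genes of at least 1 CPM; the window was selected on these values, so nothing is read from the count. The median fell in a gap in the values: it was the 0.64 of Nav3, with 0.42 (Ppp1r12a) next below and 0.71 next above, while 5 members lay within 0.2 of 0 on either side. From the proximal side, Kitl, the ligand of the KIT receptor, was at 75.1, 77.7 and 67.8 CPM in shNT and 68.4, 70.3 and 70.2 CPM in shARF, and its groups overlapped. The next pair rose together. Tmtc3, an O-mannosyltransferase of the endoplasmic reticulum, went from 94.5, 87.0 and 86.5 CPM to 144, 145 and 150 CPM (log2 fold change 0.71, SE 0.04). Cep290, a protein of the ciliary transition zone, went from 32.0, 29.8 and 29.7 CPM to 53.5, 54.8 and 56.9 CPM (0.85, SE 0.05). The gene that overlaps the end of Cep290 on the other strand, 4930430F08Rik, was level at 12.2 ± 0.841 and 12.3 ± 0.682 CPM (SD, n = 3 each).

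The members around 102 to 106 Mb went in every direction. Nts, the precursor of the peptide neurotensin, was low throughout and went from 0.347, 0.698 and 0.389 CPM to 2.30, 1.64 and 1.57 CPM (1.92, SE 0.31). Its neighbour Rassf9 was level at 2.87, 3.43 and 3.28 CPM in shNT and 3.19, 3.01 and 3.42 CPM in shARF. Slc6a15, a transporter of neutral amino acids, fell from 12.4, 11.0 and 11.6 CPM to 0.357, 0.228 and 0.157 CPM (-5.54, SE 0.21), the largest fall of the chromosome. Every shARF library was thus far below every shNT library at Slc6a15, inside the window with the highest median. Tmtc2, a relative of Tmtc3, rose from 3.54, 3.22 and 3.52 CPM to 9.73, 9.63 and 9.71 CPM (1.5, SE 0.07). Mettl25 and Ccdc59, which overlap at their starts, were at 0.05 (SE 0.08, not called) and -0.15 (SE 0.04, called lower).

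The largest rises of the window included those of 3 adjacent members. Acss3, a mitochondrial short-chain acyl-CoA synthetase, went from 0.326, 0.205 and 0.340 CPM to 8.17, 8.71 and 10.1 CPM (4.95, SE 0.18). Lin7a, a scaffold protein of cell polarity and synapses, went from 0.738, 1.33 and 0.996 CPM to 3.62, 3.63 and 3.38 CPM (1.78, SE 0.21). Ptprq, a receptor-type phosphatase known from hair cells of the inner ear, went from 24.8, 24.2 and 22.6 CPM to 112, 117 and 120 CPM (2.29, SE 0.05). For all 3 every shARF library was above every shNT library, and at the low levels of Acss3 and Lin7a the shNT libraries varied among themselves. Beyond them Ppp1r12a, the targeting subunit of myosin phosphatase, rose by less (0.42, SE 0.03), as did Pawr, a pro-apoptotic protein (0.71, SE 0.04), and Nav3, a microtubule-binding protein (0.64, SE 0.05). Between Pawr and Nav3 the calcium sensor gene Syt1 fell from 4.24, 4.82 and 3.91 CPM to 1.21, 0.958 and 1.32 CPM (-1.89, SE 0.15).

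**Figure D3:**
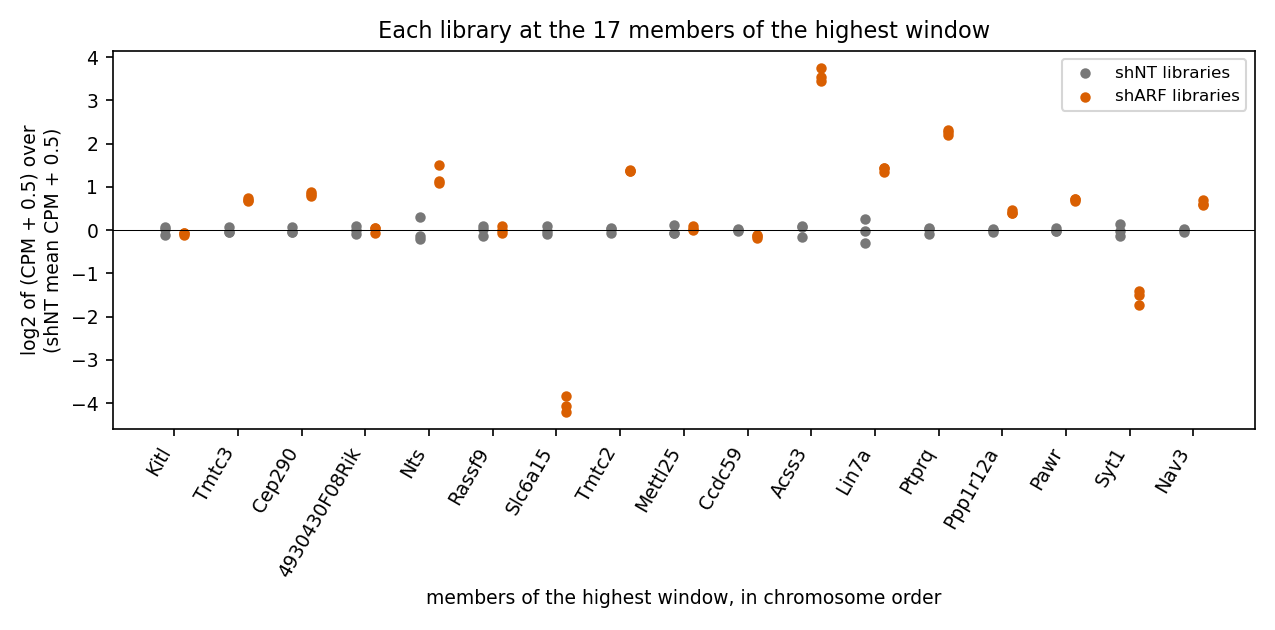
Each library at the 17 members of the 100 to 110 Mb window in chromosome order (x axis), as log2 of (CPM + 0.5) over the shNT mean plus 0.5 (y axis); grey points are the 3 shNT and orange points the 3 shARF libraries. Orange points lie far above 0 at Acss3 and Ptprq, at 0 for genes such as Kitl and Rassf9, and far below it at Slc6a15 and Syt1.

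The ends of a rise could not be placed at this window. The member before it, Dusp6, a phosphatase of ERK, rose by 0.44, and Dcn and Btg1 further back fell (-2.12 and -0.32). The member after it, E2f7, a repressive E2F factor, was at -0.01 with overlapping groups. When a 10 Mb window was moved in steps of 1 Mb, a step chosen after seeing the data, its median was 0.24 for 99 to 109 Mb and 0.24 for 101 to 111 Mb. At 97 to 107 Mb it was 0.01 and at 102 to 112 Mb 0.07. Only 1 of 128 placements had a median above 0.3, the one at 100 to 110 Mb. In 5 Mb windows the 100 to 105 Mb part was at 0.01 (7 members) and the 105 to 110 Mb part at 0.68 (10 members, 7 called higher and 2 lower, beside 32.9% and 30.5% of genes at that level). The 12 members of at least 5 CPM had a median of 0.53, and the 5 below that level had 1.78.

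**Figure D4:**
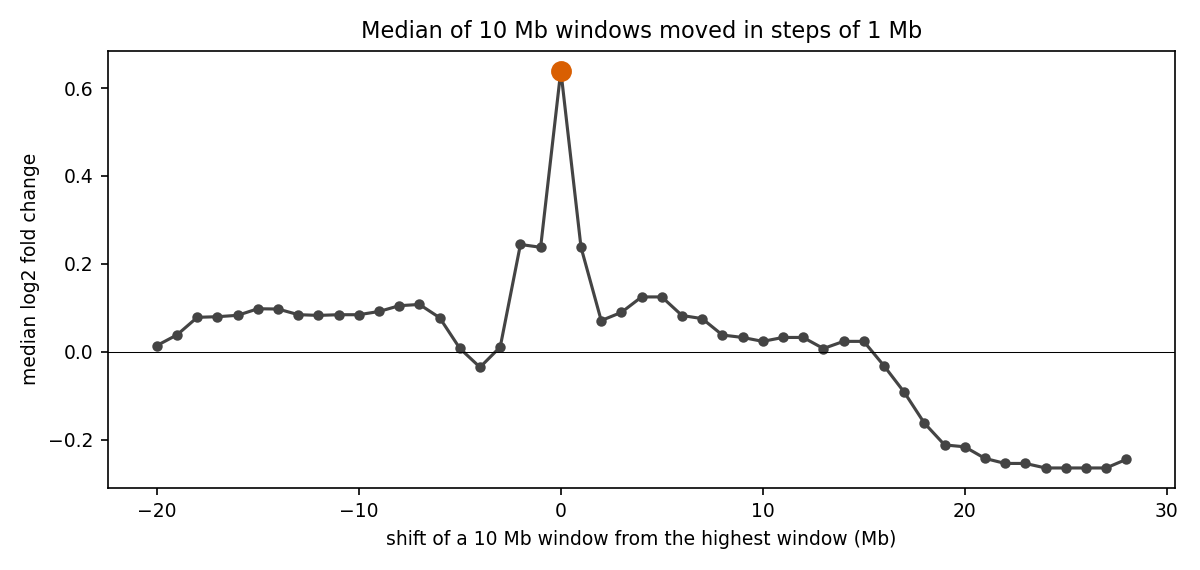
Median log2 fold change (y axis) of a 10 Mb window moved in steps of 1 Mb, against its shift from the 100 to 110 Mb window (x axis, Mb); the orange point is that window. The value of 0.64 stands alone, with 0.24 a step to either side, and the medians turn negative over the far end of the chromosome.

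A single run of neighbouring members was also fitted, as the stretch of at least 5 genes that left the smallest summed absolute deviation from one median inside and another outside. The fitted run was not the 100 to 110 Mb window but the far end of the chromosome, and it was lower, not higher. Low medians were also found elsewhere: the 120 to 130 Mb window (-0.22) ranked 229th from the highest of 247 windows of the genome. The lowest was -0.36 (chromosome 8, 20 to 30 Mb). The fitted run covered 76 members from Ppm1h (start 122678762) to the last member, Gm9770 (end 130413309). Its median was -0.26 against 0.06 for the other 570 (-0.03 when libraries were scaled by their totals alone). Such a step removed 2.28% of the summed deviation, so most of the scatter was between single genes. Of the 76 members 47 were called lower (61.8%) and 13 higher (17.1%), against 30.5% and 32.9% of genes of at least 1 CPM. The fit chose the run on these same values, so nothing is read from these counts. In shNT libraries the median over these members lay between -0.02 and 0.02, and in shARF replicates 1, 2 and 3 it was -0.28, -0.29 and -0.24. Fitted on each shARF library alone, against the shNT mean, the run began and ended at the same genes. These fits share the shNT mean and the members, so they are not independent of each other. The start was less firm under other settings. Without shARF replicate 2, and without shARF replicate 3, it moved to Cdk4 (127063534). With squared in place of absolute deviations the fit chose another stretch altogether, 5 genes from Gm8960 to Cnot2 (115599026 to 116581511, median 0.20) that hold Tspan8.

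The members on either side of the start of that run differed in direction. Just before it Srgap1, which inactivates small GTPases downstream of Robo receptors, rose from 15.1, 17.3 and 14.4 CPM to 45.2, 47.5 and 48.6 CPM (1.59, SE 0.08). Rxylt1, an enzyme that modifies dystroglycan, rose from 34.4, 34.8 and 34.2 CPM to 48.8, 48.8 and 48.0 CPM (0.49, SE 0.03). BC048403 varied within both groups (6.10 to 13.7 and 8.66 to 15.6 CPM). Inside, Ppm1h, a protein phosphatase, fell from 3.43, 2.89 and 2.45 CPM to 1.83, 1.62 and 1.95 CPM (-0.70, SE 0.16). D630033A02Rik had a log2 fold change of -1.57 (SE 0.66, not called), and Mon2, a protein of Golgi traffic, fell (-0.24, SE 0.05). At the far end Bloc1s1, a lysosome biogenesis subunit, Itga7, a laminin-binding integrin chain, and Gm9770 fell (-0.42, -1.37 and -0.89).

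Within the run 7 of the 76 members fell at least 2-fold (9.21%) and 0 rose as much, beside 6.41% and 5.78% of genes of at least 1 CPM. As the run was fitted on these same values, nothing is read from these counts. Slc16a7, a monocarboxylate transporter, fell from 1.87, 2.79 and 4.35 CPM to 0.134, 0.182 and 0.0895 CPM (-4.44, SE 0.44). Kif5a, a neuronal kinesin, fell from 2.30, 1.77 and 2.38 CPM to 0, 0.274 and 0.224 CPM (-3.68, SE 0.59). Both were low in all libraries and reached the mean of 1 CPM only through shNT. At higher levels, Dgka, a diacylglycerol kinase, fell from 13.7 ± 0.591 to 3.2 ± 0.152 CPM (-2.10), and Mmp19, a matrix metalloproteinase, from 56.2 ± 2.94 to 20.6 ± 2.21 CPM (-1.44; SD, n = 3 each). Mmp19 overlaps Tmem198b, which fell alongside (-1.13), and reads of such pairs may be shared between them. Smarcc2, a SWI/SNF subunit, went from 202, 203 and 199 CPM to 118, 102 and 108 CPM (-0.89, SE 0.05). Lrp1, an endocytic receptor, went from 2056 ± 35.1 to 1684 ± 24.2 CPM (-0.29, SE 0.02).

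The run also held genes that rose. Shmt2, the mitochondrial serine hydroxymethyltransferase, went from 235, 229 and 241 CPM to 400, 391 and 386 CPM (0.74, SE 0.03), the largest rise in it. Ddit3, the stress-induced factor CHOP, went from 19.4, 23.4 and 23.2 CPM to 32.1, 34.1 and 35.6 CPM (0.63, SE 0.08), and its annotation overlaps that of Mars. Ankrd52, a regulatory subunit of protein phosphatase 6, went from 202, 201 and 200 CPM to 270, 267 and 268 CPM (0.42, SE 0.02). Mettl1, a tRNA methyltransferase, and Spryd4 rose by 0.44 and 0.41. Eef1akmt3, a lysine methyltransferase that overlaps Mettl1, was at 0.37 and was not called. No member of the run rose 2-fold.

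A run restricted to stretches with a higher median inside than outside, a restriction added after seeing the data, was found far from the window that had stood out. It covered 11 members from H60b to Ccn2 (22158586 to 24598683), with a median of 0.75 against 0.03 outside. All 11 values were above 0, and 10 were called higher, beside 32.9% of genes of at least 1 CPM. The run was fitted on these same values to be higher inside, so nothing is read from the count. The step removed 1.22% of the summed deviation. The medians over these members were -0.03 to 0.03 in shNT libraries and 0.71, 0.74 and 0.76 in shARF replicates 1, 2 and 3. Moxd1, a monooxygenase-like enzyme known from neural crest derivatives, went from 0.261, 0.411 and 0.632 CPM to 17.4, 18.7 and 19.6 CPM (5.43, SE 0.22). Vnn1, a pantetheinase, went from 1.17, 1.13 and 1.31 CPM to 24.7, 23.7 and 24.1 CPM (4.33, SE 0.07). The other 9 moved by less. Ccn2, a matricellular protein often used as a readout of YAP activity, went from 127, 127 and 134 CPM to 266, 243 and 246 CPM (0.96, SE 0.04). Eya4, a transcriptional coactivator with phosphatase activity, went from 109, 105 and 102 CPM to 162, 175 and 167 CPM (0.67, SE 0.04), and Tbpl1, a relative of the TATA-binding protein, from 30.6 ± 0.464 to 51.4 ± 0.800 CPM (0.75; SD, n = 3 each). Stx7, a SNARE of late endosomes, was called at 0.46, Slc18b1, a vesicular transporter, at 0.34 and the ribosomal protein gene Rps12 at 0.19. At low levels, H60b went from 1.20 ± 0.372 to 3.27 ± 0.437 CPM (1.44; SD, n = 3 each). The pseudogene C920009B18Rik went from 1.75 ± 0.343 to 5.46 ± 0.889 CPM (1.63). The pseudogene Gm17794 was not called (0.27, SE 0.26).

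The run from H60b to Ccn2 was flanked by genes that fell. Before it Sgk1, a kinase of growth factor and salt responses, went from 188, 188 and 187 CPM to 138, 135 and 128 CPM (-0.49, SE 0.03). Directly after it Enpp1, which makes pyrophosphate, went from 62.2, 63.9 and 69.3 CPM to 48.6, 47.7 and 49.7 CPM (-0.42, SE 0.05). The next gene, Enpp3, of the same family, rose from 3.74, 3.24 and 3.60 CPM to 26.5, 26.4 and 27.5 CPM (2.93, SE 0.07). Neighbours of the same family thus moved in opposite directions, with no overlap between groups in either.

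**Figure D5:**
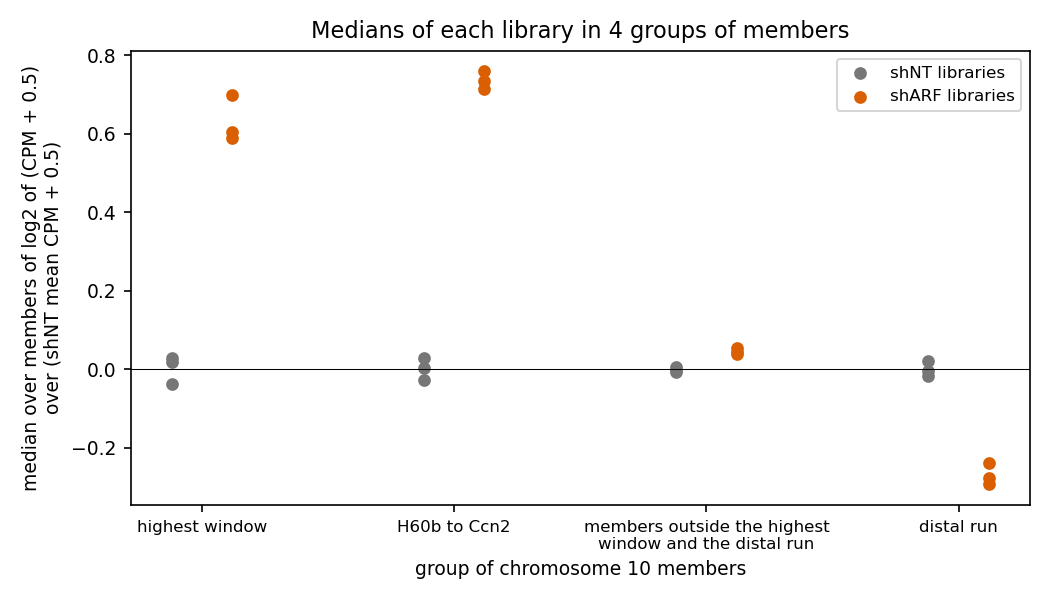
Median over members of log2 of (CPM + 0.5) over the shNT mean plus 0.5 (y axis) in each of the 3 shNT (grey) and 3 shARF (orange) libraries, for 4 groups of members (x axis): the 100 to 110 Mb window, H60b to Ccn2, the 554 members outside the window and the distal run (which hold the H60b to Ccn2 genes too), and the distal run. The shARF libraries lie at 0.59 to 0.70, 0.71 to 0.76, 0.04 to 0.06 and -0.29 to -0.24.

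Adjacent members shared little of their fold changes over the chromosome as a whole. Across the 645 pairs of adjacent members, 354 had fold changes of the same sign, and the correlation of their log2 fold changes was low (Pearson 0.12, Spearman 0.11, over genes that share the same 6 libraries). Divergent pairs, with starts at most 1000 bases apart, numbered 42, and 24 of them had the same sign. Both genes were called higher in 8 of these pairs and both lower in 6, and in 7 the calls were opposite. Single genes of at least 1 CPM were called higher in 32.9% and lower in 30.5%. Whether the pairs went together more often than unrelated genes was not tested. Some of the pairs overlap, and reads may be shared between them. Cep83 and its divergent noncoding partner Cep83os rose together (0.46 and 0.79), while Lsm7, an RNA-binding subunit, and Sppl2b, an intramembrane protease, had starts 66 bases apart and went to -1.01 and 0.71. Both pairs were chosen after their values were seen.

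Members with large changes had a lower mean CPM over all 6 libraries than the rest. Part of this is built in, because the same mean chose the members. Moxd1, Tspan8, Slc16a7 and Kif5a, for example, were under 1 CPM in 1 group and reached the mean of 1 CPM only through the other. How much of the difference this makes was not tested. The 83 members called with at least a 2-fold change had a median of 7.17 CPM, against 40.3 CPM for the 328 called with less and 28.4 CPM for the 235 not called. Per kb of exon the medians were 1.78, 10.2 and 6.77 CPM. In their promoters the median ratio of observed to expected CpG was 0.687 in 55 promoters of members changed at least 2-fold and 0.824 in the other 435, with a median GC content of 63.7% and 63.3%. The difference was not tested. Among the most abundant members per kb of exon, Eef2, the translocation factor of translation, led with 739 CPM per kb and a log2 fold change of -0.03, followed by Rps15 (525 CPM per kb, -0.06), Col6a1 (327 CPM per kb, -0.18, called lower) and Mif, a cytokine (315 CPM per kb, 0.51, called higher).

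The largest changes outside the distal run are given for members of at least 5 CPM without overlap between groups, leaving out predicted gene models. They were spread over several windows, with Vnn1, Moxd1 and Enpp3 close together. After Moxd1, the largest rises were those of Ptprb, an endothelial receptor phosphatase (0.493 ± 0.133 to 10.2 ± 1.29 CPM, log2 fold change 4.36), Vnn1, Samd5 (4.87 ± 0.587 to 39.6 ± 1.54 CPM, 3.02), Enpp3 and Glipr1 (6.04 ± 1.10 to 41.8 ± 7.33 CPM, 2.79; SD, n = 3 each). Glipr1 overlaps Krr1, a factor of ribosome assembly, which was at 55.1, 25.8 and 51.1 CPM in shNT and 32.4, 30.8 and 34.0 CPM in shARF. After Slc6a15, the largest falls were those of Grik2, a kainate receptor subunit (38.1 ± 0.544 to 3.58 ± 0.869 CPM, -3.41), Perp, a p53-inducible desmosome protein (-3.35), Dcn, Rassf3 (26.3 ± 0.254 to 6.13 ± 0.715 CPM, -2.10) and Apc2 (8.36 ± 0.566 to 2.03 ± 0.189 CPM, -2.04). Tspan8, a tetraspanin below that level, had 0.0869, 0 and 0 CPM in shNT and 7.19, 7.39 and 7.61 CPM in shARF.

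Of 19 cell cycle and p53 genes of the chromosome 9 fell and 4 rose, beside 30.5% and 32.9% of genes of at least 1 CPM (27.7% and 28.8% of all genes tested). Their median was -0.32, where that of all genes of at least 1 CPM was 0.01. Of the 19, 4 lie in the distal run (Cdk4, Prim1, Timeless and Cdk2). Mdm2 fell from 32.4, 29.9 and 26.8 CPM to 24.1, 22.8 and 23.7 CPM (-0.34, SE 0.07). Cdk4 fell from 219, 223 and 246 CPM to 185, 181 and 182 CPM (-0.33, SE 0.05) and overlaps Tspan31, which also fell (-0.45). The DNA primase gene Prim1 and Timeless, of the replication fork, fell (-0.51 and -0.42). Cdk2 varied within groups, at 52.4, 51.0 and 29.5 CPM in shNT and 19.8, 33.8 and 33.0 CPM in shARF, and was not called. Plagl1, an imprinted zinc finger gene, rose from 6.56, 6.69 and 7.09 CPM to 19.1, 21.1 and 20.7 CPM (1.58, SE 0.07), and Pawr, Gadd45b and Zwint rose as well (0.71, 0.45 and 0.22). Cdk1, the kinase of mitosis, was at 144 CPM in both groups (0.00, SE 0.03).

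Of 19 growth factor and pathway genes at the chosen level 6 rose and 9 fell, beside 32.9% higher and 30.5% lower among all genes of at least 1 CPM, and their median was -0.29. Igf1 rose from 43.0, 44.0 and 40.4 CPM to 74.2, 72.6 and 76.8 CPM (0.81, SE 0.05), and the kinase gene Fyn (0.65), Hmga2, a chromatin protein (0.25), Stat6 (0.15), Ccn2 and Dusp6 rose as well. Esr1, an oestrogen receptor, fell from 7.84, 16.3 and 15.7 CPM to 3.82, 4.2 and 4.63 CPM (-1.66, SE 0.28). Its shNT libraries were far apart, yet the lowest of them was above every shARF library. Socs2, an inhibitor of cytokine signalling, fell from 11.2 ± 1.22 to 6.10 ± 0.290 CPM (-0.87; SD, n = 3 each), and Egr2, a zinc finger factor, from 5.97 ± 0.712 to 3.32 ± 0.112 CPM (-0.85). Nab2, a corepressor of EGR factors, fell (-0.64), and it overlaps Stat6, which rose. The others that fell were Lgr5, Sgk1, Foxo3, Frs2 and Lrp1, between -0.75 and -0.29. Gja1, the gap junction protein connexin 43, was at 176, 369 and 363 CPM in shNT and 475, 219 and 461 CPM in shARF, so its groups overlapped. Gli1, Arid5b and Kitl were not called either, and Erbb3, Wif1, Tcf21 and Myb were under 1 CPM.

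Of 13 matrix genes at the chosen level 4 rose and 7 fell, beside the same shares of 32.9% and 30.5%, and their median was -0.17. Adamts14, a procollagen N-propeptidase, went from 19.1, 22.5 and 22.0 CPM to 76.0, 76.5 and 72.8 CPM (1.82, SE 0.07), and P4ha1, a collagen prolyl hydroxylase subunit, from 177, 183 and 182 CPM to 341, 353 and 348 CPM (0.95, SE 0.02). Mmp11, a metalloproteinase that overlaps Chchd10, and Timp3, an inhibitor of such enzymes, rose by 0.72 and 0.49. Structural genes made up most of those that fell. Dcn went from 193, 199 and 203 CPM to 43.8, 43.1 and 49.5 CPM (-2.12, SE 0.06). Col18a1, Lama2, Lama4, Col6a1 and Col6a2 fell by less (-0.44, -0.42, -0.16, -0.18 and -0.17), as did Enpp1. Lum and Ntn4 were not called (-0.37 and 0.28), and Kera, Epyc, Col10a1 and Col13a1 were under 1 CPM.

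Only 6 of 12 innate immunity genes were at the chosen level; of these 5 fell and 0 rose, beside 30.5% lower and 32.9% higher at that level, with a median of -0.48. Ifngr1, a chain of the interferon gamma receptor, went from 34.9, 24.4 and 32.4 CPM to 12.9, 11.5 and 13.8 CPM (-1.26, SE 0.14). Irak3, a brake on Toll-like receptor signalling, Stat2, of type I interferon signalling, the adaptor gene Traf3ip2 and the kinase gene Tbk1 fell by less (-0.82, -0.50, -0.22 and -0.21). Tnfaip3, an inhibitor of NF-kB, was not called (-0.47, SE 0.18). The genes under 1 CPM were Lyz1, Lyz2, Ifng, Il22, Itgb2 and Prdm1.

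Of 20 metabolism, translation and stress genes 12 rose and 4 fell, beside 32.9% and 30.5% of genes at that level, with a median of 0.11 and no change of 2-fold. Pfkl, a phosphofructokinase of glycolysis, went from 95.9, 97.2 and 97.2 CPM to 195, 187 and 179 CPM (0.95, SE 0.03). Xpot, the export receptor for tRNA, went from 253, 246 and 245 CPM to 454, 465 and 454 CPM (0.88, SE 0.02). Ddx21, a nucleolar helicase of ribosome production, went from 282, 268 and 272 CPM to 441, 440 and 434 CPM (0.68, SE 0.02). Its neighbour and relative Ddx50 rose by 0.10. The groups were far apart at Pfkl, Xpot and Ddx21, and these genes lie in different windows. Txnrd1, Cct2, Hsp90b1, Pa2g4, Mars and Slc25a3 rose between 0.08 and 0.31. The genes that fell were Os9, Sirt1, Atp5b and Cs, the last a citrate synthase, between -0.28 and -0.15. Hk1, Tfam, Gpx4 and Gls2 were not called.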

How the data were processed

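RNA-seq of 6 libraries (3 per group) was deposited as a table of gene counts, with no normalization applied by the authors as far as the whole numbers show. Per the submitters' processing notes, the tools included DESeq2 1.34.0, StringTie 1.3.2, HISAT2 2.1.0, Picard 2.13.2, Trim Galore 0.4.1 and SAMtools 0.1.19, on build GRCm38, with no role or order stated. Not given in the sources used here were the counter, the annotation release and the strand setting. Without strand, reads of overlapping genes cannot be told apart. A further 6 columns matched no sample and were not used. The shARF columns carry other index numbers than the titles and were matched on group and replicate. Gene IDs were matched, without their version, to GENCODE M21 (54723 of 54752 IDs), which gave names and GRCm38 positions. In it Ctgf is Ccn2 and Mars1 is Mars.

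Counts were fitted with edgeR 4.0.16 in R 4.3.3 (TMM, filterByExpr with a minimum count of 10 and a minimum total of 15, quasi-likelihood F test, two-sided, Benjamini-Hochberg adjustment over 17128 genes, threshold 0.05, prior count 0.125). The code was tested on simulated data. Values per library are CPM from TMM-scaled library sizes, and a pseudocount of 0.5 was used for medians per library. Windows of 10 Mb needed at least 15 members. The fitted run held at least 5 members and no more than lay outside it. SE values are standard errors of log2 fold changes.

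The members, gene lists, motifs and marker lists were chosen with earlier results of these data known. Named were the first and last 3 genes of the run, its 6 largest and 6 smallest fold changes, the 3 members before it, the 6 largest rises and falls elsewhere among members of at least 5 CPM, and listed genes. Members of the 100 to 110 Mb window and of the H60b to Ccn2 run were described as well. Alternatives were other scalings, DESeq2 1.42.0, limma-voom (limma 3.58.1), other filters, a replicate block, leaving out each library, other window sizes and another loss.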

Additional observations from a re-analysis of the deposited data

How the results depend on the processing

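The counts of members called higher and lower stayed within 1.5 times of 213 and 198 under every alternative run. Those called higher ran from 172 (libraries scaled by their totals alone) to 214 (limma-voom). Those called lower ran from 165 (members of at least 5 CPM alone) to 238 (scaling by totals alone). By DESeq2 199 were called higher and 190 lower, and by limma-voom 214 and 202. The replicate numbers did not pair the libraries: deviations of same-numbered libraries correlated at -0.131, -0.0468 and -0.0331. With a replicate block 198 members were called higher and 187 lower, the highest window was at 0.64, the distal run at -0.28, the rest at 0.06 and the difference at -0.33.

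Upper quartile scaling put the distal run at -0.29 and the rest at 0.0252. Scaling by totals alone gave 0.55 for the highest window, -0.35 for the run and -0.0346, the opposite sign, for the rest. Among members of at least 5 CPM the highest window was 20 to 30 Mb at 0.32, since only 12 members were left in the 100 to 110 Mb window, and the run began at 125966168 with the rest at 0.0661. Protein-coding members alone gave a run from 127063534 to 128958282 and a difference of -0.35. Squared deviations gave 115599026 to 116581511, with 0.20 inside, 0.0314 outside and a difference of 0.17. In 2 Mb windows with at least 5 members the highest median was 0.71 (22 to 24 Mb, 8 members), and with fewer it was 2.29 (106 to 108 Mb, 3 members). The raised run, added after seeing the data as were the 1 Mb steps, spanned 22158586 to 24598683 with 0.75 inside, 0.0287 outside and a difference of 0.72. Leaving out 1 library at a time gave 195 to 205 higher and 179 to 187 lower, 0.61 to 0.66 for the highest window, a start between 122678762 and 127063534 (the latter without shARF replicate 2 or 3), an end of 130413309, -0.30 to -0.26 for the run, 0.0492 to 0.0635 for the rest and -0.35 to -0.32 for the difference. Low counts limit genes near 1 CPM, and 3 libraries a group cannot show how separate infections would vary.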

Other observations

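Some well-expressed members varied widely between libraries of one group. Of 397 members of at least 20 CPM, 29 had libraries of a group more than 1.5 times apart, where the median ratio was 1.09. Scamp4, a secretory carrier membrane protein, was at 70.4, 7.98 and 67.2 CPM in shARF, and Zbtb2, a zinc finger protein, at 28.6, 5.71 and 26.8 CPM in shNT. Lims1, a focal adhesion adaptor, was called higher although shARF replicate 2 (69.3 CPM) lay near the shNT libraries (58.7 to 64.2 CPM) and the other two were at 204 and 207 CPM. Sar1a, a GTPase of vesicle budding, was at 78.5, 223 and 84.3 CPM in shARF and 236 to 254 CPM in shNT. Ctdsp2, a phosphatase of the distal run, was at 220, 83.4 and 82.8 CPM in shARF. None of the 29 lay in the 100 to 110 Mb window. The cause was not tested.

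The ETS-type motif CCGGAAG lay in 2 of 55 promoters of members changed at least 2-fold (3.64%), in 22.07% of the other 435 and in 8.86% of all promoters of the table. Of the 7 motifs searched it had the widest difference between these groups, which was not tested. CCAAT lay in 34.55% of the 55 and 36.78% of the 435, and GGGCGG in 63.64% and 72.18%. The groups also differed in mean CPM and in CpG ratio.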
